A study of Mus musculus with 14 samples.

Results

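Peaks of the histone mark H3K36me3 in round spermatids (RS), which are haploid germ cells, were compared between wild-type (WT) mice and mice labelled Setd2KO. The peaks are those of 2 deposited lists, 1 for RS WT with 34499 peaks and 1 for RS Setd2KO with 3692, which makes 38191 of the 83701 peaks in the 4 lists of the series. The other 2 lists are from pachytene and diplotene spermatocytes (PD), in meiotic prophase. All peak positions and gene intervals are in mouse build mm9. All groups were adult C57BL/6J mice, and spermatids were obtained by fluorescence-activated sorting on 2 DNA dyes, Hoechst and propidium iodide. How, when and in which cells Setd2 was deleted, and how many animals gave each library, is not given in the sources used here. Each ChIP-seq group is 1 library, so the peak lists were compared as values, with no test and no replicate check. Their sequencing depth is unknown. Polyadenylated RNA of the same 2 groups was read in 2 libraries each.

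H3K36me3 is trimethylation of lysine 36 of histone H3. Setd2 places it while travelling with elongating RNA polymerase II. The mark therefore typically lies more over the bodies of transcribed genes than over their start sites. In round spermatids a late programme of transcription makes the acrosome, the flagellum, and the transition proteins and protamines that later replace histones.

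The RNA of the RS WT libraries was checked against markers of the labelled cell type. All 10 round spermatid markers reached at least 5 FPKM (a fragment count scaled by transcript length in kilobases and library size in megareads), whereas none of the 9 Sertoli, 7 Leydig, 9 myoid and macrophage or 11 spermatogonial markers did. Of 25 synaptonemal complex and recombination genes, which act in spermatocytes, 12 reached 5 FPKM in RS WT, with Syce1 at 136.8 FPKM. RNA depth was 50.8 to 84.9 megareads per RS library, as worked back from the FPKM values. The 2 libraries of a group correlated across genes at r = 0.995 in both genotypes. Nothing in the labels ties replicates to separate animals, so p-values for RNA cover only library-to-library spread, and this could be technical.

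In Setd2KO spermatids the mark was almost gone from the deposited lists. On the autosomes, RS WT peaks covered 229.9 megabases, or 9.54% of the extent spanned by genes and peaks. RS Setd2KO peaks covered 0.647 megabases, or 0.0269%. The ratio of covered bases was 355, and in PD it was 340.0. The ratio of peak numbers was only 9.38, with 34499 against 3676 autosomal peaks.

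Width set the lists apart almost completely. The median peak was 3278 bases wide in RS WT and 176 bases in RS Setd2KO, and the quartiles were 1684 and 7940 bases in RS WT and 157 and 190 bases in RS Setd2KO. The RS WT peaks ranged from 463 to 69366 bases and the RS Setd2KO peaks from 76 to 1139 bases, and 15 of the Setd2KO peaks were at least 300 bases wide. In PD Setd2KO, where 1152 peaks were called, the median width was 587 bases and the narrowest peak was 286 bases wide, so the 2 Setd2KO lists also differed from each other in width.

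**Figure D1:**
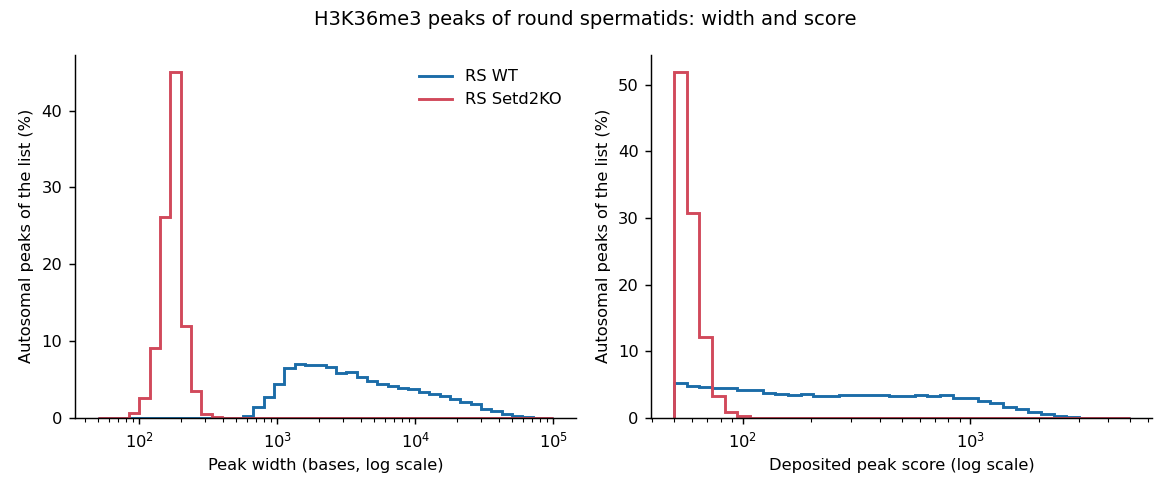
Share of autosomal peaks (y axis, percent of the list) by peak width in bases (left) and by deposited score (right), both on log axes, for RS WT (blue) and RS Setd2KO (red). The Setd2KO peaks form 1 narrow group near 176 bases and just above the lowest score of 50, whereas the WT peaks spread over a wide range of both.

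The authors' score per peak, whose scale is not named, starts at 50 in every list. Its median was 232 in RS WT and 56.5 in RS Setd2KO. A score of at least 100 was held by 25711 RS WT peaks (74.5%) and by 25 RS Setd2KO peaks (0.68%), and a score of at least 1000 by 4027 and 5. At low scores the lists held like numbers of peaks of unlike width: 2524 RS WT and 2507 RS Setd2KO peaks scored from 50 to 60, with median widths of 1077 and 176 bases. Wider WT peaks had higher scores (Spearman rho = 0.804 over 34499 peaks), and in Setd2KO width and score were nearly unrelated (rho = 0.011 over 3676 peaks). These are descriptions over peaks, which are not independent replicates.

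Neighbouring WT peaks ran together into long stretches. When peaks at most 5000 bases apart were joined, RS WT gave 10969 stretches with a median of 11962 bases, of which 339 reached 100 kb. The longest was 262.5 kb on chromosome 7 (125854392 to 126116915), with 28 peaks over Ccp110, Knop1, Iqck, Gprc5b and 1 gene with a clone name. A stretch of 245.4 kb on chromosome 17 (51072461 to 51317838), with 26 peaks, lay over the single gene Tbc1d5, a Rab GTPase regulator. Genes under these stretches were named after their values were seen. In RS Setd2KO 98.0% of the 3588 stretches were single peaks and the longest spanned 6176 bases.

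The highest scored and the widest WT peaks were different peaks. The top score, 3216, belonged to a peak of 14774 bases over Rnf32, a RING finger gene (chromosome 5, 29522563 to 29537336), and peaks over Crybg3 and Atp8b5, which encodes a flippase, scored 3172 and 3162. The widest peak, of 69366 bases over Slc12a2, a sodium, potassium and chloride cotransporter, scored 176. The next, over Xrn1, a cytoplasmic RNA exonuclease, and Herc2, a ubiquitin ligase, were 69233 and 68666 bases wide and scored 94.7 and 76.9. None of the 5 highest scored and 5 widest peaks held a base of a PD Setd2KO peak. The Rnf32 peak lay wholly inside PD WT peaks, whereas 7917 bases of the Herc2 peak did.

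By position, WT peaks lay mostly in genes, and the Setd2KO shares of gene body and intergenic bases were closer to those of the whole extent, whereas the promoter share was not. Each base was given to a promoter (1000 bases before to 500 after a gene start), otherwise to a gene body, otherwise to intergenic space. Gene bodies held 81.3% of RS WT peak bases, 43.3% of RS Setd2KO peak bases and 35.3% of the autosomal extent. Intergenic space held 17.0%, 56.1% and 63.6%, and promoters held 1.61%, 0.516% and 1.17%. Read the other way, RS WT peaks covered 22.0% of gene body, 13.1% of promoter and 2.56% of intergenic bases, whereas RS Setd2KO peaks covered 0.033%, 0.0118% and 0.0237%. By peak midpoint, 314 RS WT peaks (0.91%, with an exact 95% interval of 0.813% to 1.02%) fell in a promoter, as did 17 RS Setd2KO peaks (0.462%, 0.27% to 0.739%). These intervals cover counting error only. With the gene body taken before the promoter, promoter shares fell to 0.792% and 0.258%, and with scores of at least 100 only, 5.64% of RS Setd2KO bases were promoter and 36.4% intergenic, from 25 peaks. Counting 2000 upstream bases as the promoter gave 2.53% of RS WT bases.

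Outside genes, WT peaks lay nearer to a gene than Setd2KO peaks, with median distances of 13.6 and 94.7 kb. Of 7453 RS WT peaks that touched no gene, 33.2% were within 5 kb of one and 26.9% were over 50 kb away. Of 2056 such RS Setd2KO peaks, 5.11% were within 5 kb and 64.8% over 50 kb away.

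RS Setd2KO peaks fell inside RS WT peaks at about the share of the extent that those cover. Of the autosomal RS Setd2KO peaks, 318 (8.65%, exact 95% interval 7.76% to 9.61%) touched an RS WT peak. RS WT peaks held 8.53% of the RS Setd2KO bases and covered 9.54% of the extent. From the WT side, 305 peaks (0.884%, 0.788% to 0.989%) touched a Setd2KO peak. Between cell types, 22 RS Setd2KO peaks (0.598%) touched a PD Setd2KO peak. PD Setd2KO peaks held 0.764% of the RS Setd2KO bases and covered 0.0291% of the extent. Among the 25 peaks that scored at least 100, the share that touched an equally high-scored WT peak was 40%.

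Peak density varied less between autosomes than between genotypes. RS WT held from 10.8 peaks per megabase on chromosome 6 to 18.3 on chromosome 17, and RS Setd2KO from 0.964 on chromosome 4 to 2.65 on chromosome 19. The share of gene body under RS WT peaks ran from 16.0% on chromosome 6 to 26.9% on chromosome 17, with a median of 22.1%. The same share in RS Setd2KO ran from 0.0197% on chromosome 4 to 0.0535% on chromosome 19. WT exceeded Setd2KO cover by 248.9 times on chromosome 19 to 558 times on chromosome 4, so every autosome lost most of its cover. Chromosomes with more gene body had more WT cover (Pearson r = 0.804, Spearman rho = 0.721 over 19 autosomes), as a description of chromosomes that share 1 library. Densities of the 2 lists were related at r = 0.553 (rho = 0.528).

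**Figure D2:**
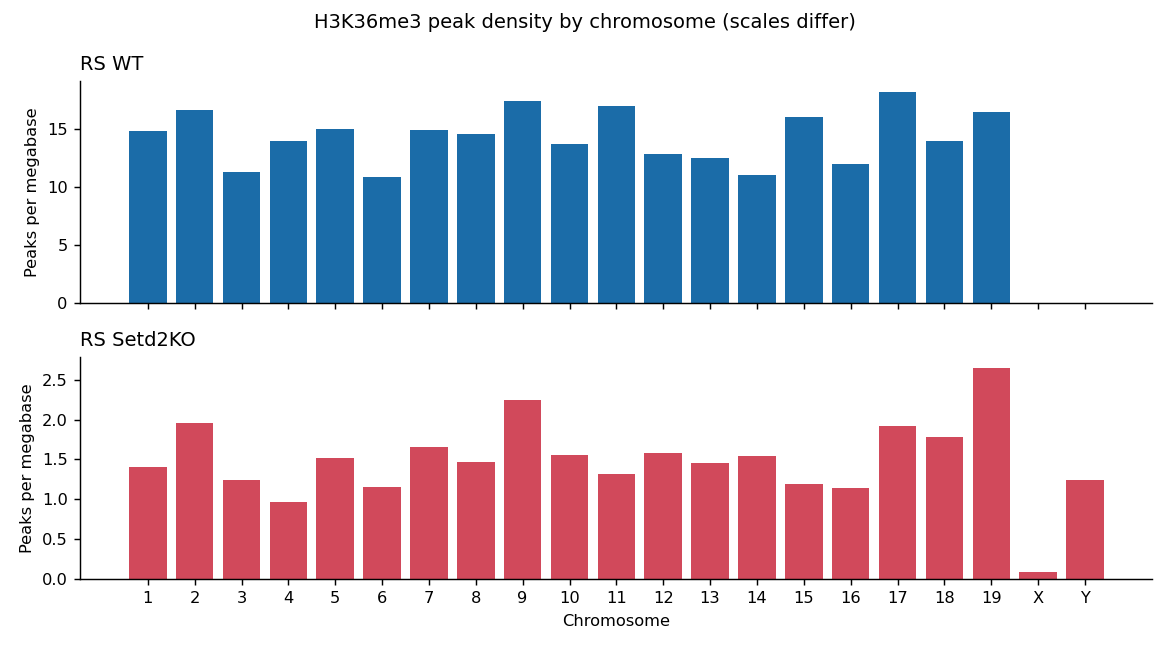
Peaks per megabase of chromosome extent (y axis) for each chromosome (x axis) in RS WT (upper, blue) and RS Setd2KO (lower, red), on different scales. RS WT has 10.8 to 18.3 peaks per megabase on the autosomes and none on X or Y, and RS Setd2KO has 0.964 to 2.65 on the autosomes, 0.0797 on X and 1.24 on Y.

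Chromosomes X and Y carried no RS WT peak, although 169 X-linked genes reached 5 FPKM. The RS Setd2KO list held 13 peaks on X and 3 on Y. Both PD lists held 0 on X and 0 on Y, so 1 of the 4 lists had any such peak. Of the X peaks, 7 lay between 166415170 and 166442552, and the Y peaks lay between 2473520 and 2475838. The last of these peaks set the end of the extent used for X and for Y. Whether sex chromosome peaks were removed from some lists before deposit is not given in the sources used here.

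Along genes, WT cover rose at the start and ran past the end. In 3732 autosomal genes of at least 10 kb with an RS WT level of at least 5 FPKM, mean cover was 28.0% in the last 1 kb before the start, 54.3% in the first of 10 body bins, 60.9% in the second and 63.4% in the last. It then fell from 54.8% in the first 1 kb after the end to 30.2% in the fifth. Cover before the start had a dip: it was 34.7% in the third 1 kb upstream and 28.0% next to the start. The 225 genes of at least 100 FPKM had no such dip, with 33.6% and 36.6%. In the 2373 genes with cover of at least 50%, the median first covered base was 70 bases inside the gene. The median last covered base was 1703 bases past the end. Cover reached the start or beyond it in 45.6% of these 2373 genes, and the end or beyond it in 82.6%. RS Setd2KO cover of the same 3732 genes was at most 0.0314% in any body bin.

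**Figure D3:**
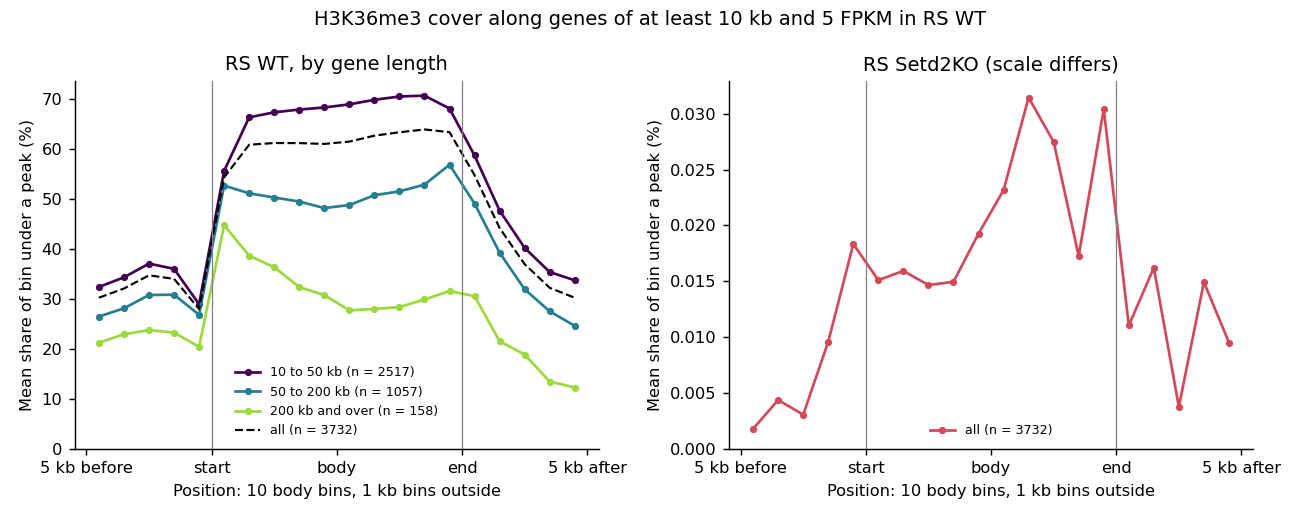
Mean share of each bin under a peak (y axis, percent) from 5 kb before to 5 kb after genes of at least 10 kb and 5 FPKM, with 10 bins over the gene body. RS WT is split by gene length on the left, and genes of 200 kb and over fall from 44.8% in the first bin to 31.6% in the last, whereas genes of 10 to 50 kb rise from 55.6% to 68.1%. RS Setd2KO (right, scale differs) stays at or under 0.0314% in the body.

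The shape depended on gene length. Genes of 10 to 50 kb (n = 2517) went from 55.6% in the first bin to 68.1% in the last, and genes of 50 to 200 kb (n = 1057) dipped from 52.7% to 48.2% in the fifth bin and ended at 56.8%. Genes of 200 kb and over (n = 158) fell from 44.8% to 31.6%. Median cover by length, among genes of at least 5 FPKM, was 35.7% under 2 kb, 82.5% at 2 to 10 kb, 91.6% at 10 to 50 kb, 54.5% at 50 to 200 kb and 28.6% at 200 kb and over. The longest of the genes with at least 99% WT cover was Cep350, which encodes a centrosomal protein (chromosome 1, 157692094 to 157820385), under 6 RS WT peaks with 99.2% of its 128292 bases covered. Dennd5b, a Rab regulator, followed with 99.6% of 113612 bases, and Ube3c, a ubiquitin ligase, with 99.2% of 106836 bases. Setd2KO cover was 0 over Cep350 and Dennd5b and 192 bases over Ube3c.

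Cover followed the RNA level up to a plateau in WT and did not in Setd2KO. RS WT cover of at least 50% was found in 0.911% of 5925 genes under 0.1 FPKM, 16.8% of 4706 genes at 0.1 to 1, 47.4% of 3648 at 1 to 5, 62.4% of 2943 at 5 to 20, 65.1% of 2036 at 20 to 100 and 68.1% of 467 at 100 FPKM and over. RS Setd2KO peaks per megabase of gene went from 2.00 under 0.1 FPKM down to 1.14 at 100 FPKM and over. They rose with gene length, from 0.399 per megabase of gene under 2 kb to 2.64 at 200 kb and over. The genes with most Setd2KO bases were long genes under 5 FPKM: Auts2 (1104662 bases, 20 peaks, 0.0289 FPKM in RS WT), Sdk1 (972258 bases, 13 peaks, 0.872 FPKM), Macrod2 (1994621 bases, 11 peaks, 4.14 FPKM), and Rbms3 and Ptprt with 10 peaks and 0.00584 and 0.271 FPKM. At most 0.338% of any of these 5 genes was covered in Setd2KO.

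A gene was called lost when at least 50% of it was covered in RS WT and at most 1% in RS Setd2KO. Of 19725 autosomal genes, 6056 had WT cover of at least 50% and 6045 were lost, which is 30.6% of all autosomal genes and 99.8% of the covered ones. No gene had Setd2KO cover of 50%. The widths nearly fix this in advance, as RS Setd2KO peaks had a median of 176 bases and at most 1139 bases. Any Setd2KO base was found in 195 of the 6056 well covered genes (3.22%, exact 95% interval 2.79% to 3.7%) and in 564 of 10848 genes with no WT cover (5.20%, 4.79% to 5.63%). Over all 19725 genes it was 1072 (5.43%), so the share was higher in genes with WT cover in between. Median length was 142 kb for genes with a Setd2KO base and 14.8 kb for those without. The shares are not adjusted for length.

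The protamine genes lie side by side on chromosome 16 under WT peaks. One RS WT peak (10790979 to 10801706, score 1082) held the whole of Prm1 and Prm2, which encode the protamines, and 7.13% of Prm3. The adjoining peak (10788702 to 10790550, score 133) held 6.52% of Tnp2, which encodes transition protein 2. Those 6.52% lay at the Tnp2 start, whose window of 250 bases before to 50 after was 99% covered. The same window of Prm3 was 93% covered. In PD WT the whole of Tnp2 was covered and none of Tnp1. Tnp1, on chromosome 1, had no peak. RS Setd2KO cover was 0 over all 5 genes, so 2 of the 5 were lost and 1 had nothing to lose. Acrbp, whose product binds proacrosin, lay within an RS WT peak of 15865 bases (chromosome 6, 124989912 to 125005776, score 564) and had no Setd2KO peak.

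The 250 bases before the start of Acrbp and Prm1, whose starts lay under RS WT peaks, and of Tnp1 and Spaca1, which had no RS WT peak at similar or lower RNA levels, are shown so that the covered and uncovered starts can be read side by side. They are RefSeq sequences of build GRCm38.p6, 5′ to 3′ on the gene's strand. Capitals mark TATAA on the given strand and TGACG or CGTCA, the half-site of the cyclic AMP response element on either strand.
Acrbp: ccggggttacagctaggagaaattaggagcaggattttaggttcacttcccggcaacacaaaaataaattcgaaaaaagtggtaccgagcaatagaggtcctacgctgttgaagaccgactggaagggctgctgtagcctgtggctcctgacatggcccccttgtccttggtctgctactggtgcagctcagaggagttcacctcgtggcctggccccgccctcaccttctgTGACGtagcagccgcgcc
Prm1: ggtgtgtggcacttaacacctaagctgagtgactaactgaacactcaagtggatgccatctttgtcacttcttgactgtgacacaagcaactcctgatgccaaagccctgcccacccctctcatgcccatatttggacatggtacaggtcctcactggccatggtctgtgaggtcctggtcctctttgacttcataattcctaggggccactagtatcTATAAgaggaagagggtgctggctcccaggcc
Tnp1: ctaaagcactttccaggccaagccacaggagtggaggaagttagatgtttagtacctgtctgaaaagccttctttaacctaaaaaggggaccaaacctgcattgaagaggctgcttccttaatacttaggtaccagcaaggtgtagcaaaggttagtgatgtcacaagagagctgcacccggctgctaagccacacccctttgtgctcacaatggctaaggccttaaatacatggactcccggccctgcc
Spaca1: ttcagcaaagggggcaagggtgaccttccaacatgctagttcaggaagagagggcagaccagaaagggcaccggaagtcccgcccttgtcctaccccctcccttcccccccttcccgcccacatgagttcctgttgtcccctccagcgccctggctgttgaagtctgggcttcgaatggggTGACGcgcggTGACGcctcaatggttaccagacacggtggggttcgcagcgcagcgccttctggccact

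The Acrbp window (chr6:125049677-125049926, plus strand) held 1 half-site, 18 bases before the start, and 11 CpG. The Prm1 window (chr16:10796824-10797073, minus strand) held TATAA 32 bases before the start and 0 CpG. The Tnp1 window (chr1:73015900-73016149, minus strand) held neither motif and 2 CpG, and the Spaca1 window (chr4:34050066-34050315, minus strand, the first of 2 starts) held 2 half-sites, 69 and 59 bases before the start, and 13 CpG. Of 32851 windows of this length in the table, 17.8% held a half-site and 16.0% TATAA. Neither motif therefore sorted covered from uncovered starts among these 4 genes.

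Over all expressed genes, the median CpG count before the start was higher in covered than in uncovered ones, as a description with no test. Among autosomal genes with an RS WT level of at least 5 FPKM, the median was 17 CpG in the 250 bases for those with at least 50% cover (2872 of 3481 matched to the table, by symbol or synonym) and 9 for those with no cover (929 of 1119 matched). At most 5 CpG were found in 8.74% of the first and 39.1% of the second. TATAA was found at 9.92% and 11.2%, and the half-site at 35.1% and 26.4%. Among genes under 1 FPKM the half-site was found at 30.4% with at least 50% cover and 14.9% with no cover. The 4 windows shown above therefore do not stand for all genes.

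The genes that lost cover can be read by role, each count against the 30.6% of all autosomal genes. Median cover was 0% over all 19725 genes and 82.5% over the 5446 genes of at least 5 FPKM. Of those 5446 genes, 63.9% had WT cover of at least 50%, the nearer background for lists of mostly expressed genes. Shares lost were 81.2% of ribosomal protein, 68.75% of post-meiotic transcription and storage and 64.7% of testis histone and histone removal genes. They were 57.9% of acrosome and 57.1% of flagellum genes. Except for ribosomal protein genes these shares lay near 63.9%, in lists of 16 to 21 genes, and no difference was tested. Among members of at least 5 FPKM, 10 of 18 acrosome and 12 of 21 flagellum genes had WT cover of at least 50%. As 6045 of 6056 genes with such cover were lost, the shares mainly describe WT cover. Of 69 autosomal ribosomal protein genes, 56 were lost, with a median WT cover of 80.03%. Of 16 genes of post-meiotic transcription and mRNA storage 11 were lost (median cover 97.2%), among them Ybx2, Ybx3 and Ddx25, which act on stored spermatid mRNA and were covered over 100%, 98.6% and 100%. Of 19 acrosome genes 11 were lost (median 78.1%), with Crisp2 covered over 86.9% and Acrbp over 100%, and 7 of the 18 with at least 5 FPKM had no WT cover. Of 21 flagellum genes 12 were lost (median 51.8%), such as Meig1, needed for the manchette, at 77.1%, and Ropn1l, a radial spoke protein, at 92.1%. Of 17 genes of testis histones and histone removal 11 were lost, led in RNA by Hils1, a spermatid linker histone, whose cover was 100%.

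Some genes of meiosis were covered in WT spermatids and others were not. Of 24 autosomal synaptonemal complex and recombination genes 17 had any WT cover and 14 were lost in Setd2KO (median cover 77.6%). Of the 12 that reached 5 FPKM, 3 had no cover, among them Syce3, another synaptonemal complex gene, at 63.1 and 56.9 FPKM. Syce1, a synaptonemal complex protein, had WT cover of 98.9%, Stag3, a meiotic cohesin, 99.4%, and Smc1b, another, 90.1% under 7 peaks.

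Genes listed as H3K36 methyltransferases, H3K36 demethylases and H3K36me3 readers had median RS WT levels of 4.201, 4.73 and 6.88 FPKM. The first 2 lists are not limited to enzymes of the trimethyl mark. Membership does not show that a product acts on H3K36, and this was not checked for any member, Setd3 and Kdm4d included. Each list is given here with its median cover. Of the 10 genes on the methyltransferase list 1 was lost, Whsc1l1, with 98.2% WT cover, named after its value was seen. The list's median cover was 0.113%. Setd2 itself had no RS WT cover at 5.24 and 5.58 FPKM, and Setd3 had 0.226% at 20.96 and 21.02 FPKM. Of the 6 genes on the demethylase list 2 were lost (median cover 43.5%), Kdm4d at 82.0% and Kdm2b at 65.2%. Of 14 reader genes 7 were lost (median 27.3%), among them Morf4l1 at 98.0%. Of 17 RNA polymerase II and elongation factor genes 10 were lost, among them Supt5 at 98.7% and Paf1 at 81.4%.

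Olfactory receptor and keratin genes, nearly all under 1 FPKM, had little WT cover to lose. Of 1112 autosomal olfactory receptor genes 6 were lost (0.54%), of 54 keratin genes 1, and of 9 Sertoli cell markers 0. The Zfp zinc finger family differed from these: of 374 genes 77 reached 5 FPKM and 136 were lost (36.4%), and 41 of the 199 members under 1 FPKM had WT cover of at least 50%. Of 66 replication-dependent histone genes, with a median length of 0.471 kb, 5 were lost.

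Among genes with at least 50% WT cover, 11 had more than 1% cover in Setd2KO, and in 8 of them this was 1 peak. Fzr1, which activates the anaphase-promoting complex, had most: 6 peaks in 3968 bases (chromosome 10, 80830211 to 80834178) covered 8.99% of the gene, with scores of 159 to 2754. A total of 4 PD Setd2KO peaks, scored up to 3100, lay in the same stretch, which was wholly inside WT peaks of both cell types. The next were Pabpc1, a poly(A) binding protein, at 2.00%, Acyp1 at 1.70% and Nek2, a centrosomal kinase, at 1.69%, each with 1 peak; these were named after their values were seen.

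The other RS Setd2KO peaks that scored over 1000 lay where WT had none. Fasl, the ligand of the death receptor Fas (chromosome 1, 163710823 to 163718626), had 2 RS Setd2KO peaks, the higher of score 1068 and 393 bases wide. Emp2, which encodes an epithelial membrane protein, had 3 on chromosome 16 (10284491 to 10288354), with scores of 494 to 1228. Neither gene had RS WT or PD WT cover, and both had PD Setd2KO cover, of 24.9% and 6.14%. Whsc1, another H3K36 methyltransferase gene, had 4 RS Setd2KO peaks with 895 bases, the highest of score 432, RS WT cover of 26.1% under 1 peak, and PD Setd2KO cover of 4.95%. The widest RS Setd2KO peak, 1139 bases on chromosome 2 (98506388 to 98507526), lay outside genes and scored 68.2. On chromosome 9, 10 peaks fell in 2 groups of 5, at 123832350 to 123834138 and 123841016 to 123844769, outside genes and partly inside WT peaks.

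Some strongly expressed genes had no WT peak at all. Of 5446 autosomal genes with an RS WT level of at least 5 FPKM, 1119 (20.5%, exact 95% interval 19.5% to 21.6%) had no RS WT cover, and of 467 genes of at least 100 FPKM, 116 (24.8%, 21.0% to 29.0%). They are described below by their state in PD WT.

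The share without cover went down with the RNA level in spermatocytes. Among these 5446 genes, no RS WT cover was found for 410 of 497 with under 1 FPKM in PD WT (82.5%, exact 95% interval 78.9% to 85.7%), 307 of 824 with 1 to 5 FPKM (37.3%, 33.9% to 40.7%) and 402 of 4125 with at least 5 FPKM (9.75%, 8.86% to 10.7%). Cover of at least 50% was found for 3.42%, 34.7% and 77.0%. Median RS WT levels of the 3 groups were 12.7, 17.5 and 18.7 FPKM. Tnp1 (1067 and 948 FPKM in the RS WT libraries), Odf1, an outer dense fibre protein (279 and 291 FPKM), and Spaca1, an acrosomal membrane protein (194 and 180 FPKM), had no cover in either WT list.

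Others were covered in spermatocytes. Of 1571 of the same genes with at least 95% cover in PD WT, 1154 (73.5%) also had at least 95% in RS WT and 170 (10.8%, exact 95% interval 9.33% to 12.5%) had none. Odf2, which encodes an outer dense fibre protein, was at 724 and 786 FPKM in RS WT, the highest level of any gene of at least 10 kb without RS WT cover, and 99.4% of it was covered in PD WT. Setd2 was another, with 99.8% in PD WT. Cfap36, Fxr1, Cenpv and Ipo5, named after their values were seen, had 142 to 192 FPKM in RS WT and 98.1% to 99.9% cover in PD WT.

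The share of PD WT peaks with no RS WT base was lowest at middle widths, a pattern that was not tested. No RS WT base lay in 27.4% of 3318 PD WT peaks under 1 kb (exact 95% interval 25.9% to 28.9%), in 14.4% of 19864 of 1 to 3 kb (13.9% to 14.9%) and in 7.68% of 14690 of 3 to 10 kb (7.25% to 8.12%). Above that, the share was 13.5% of 4536 of 10 to 20 kb (12.5% to 14.5%), 21.9% of 1742 of 20 to 40 kb (20.0% to 23.9%) and 40.4% of 208 of 40 kb and over (33.7% to 47.4%). In the other direction, no PD WT base lay in 60.9% of RS WT peaks under 1 kb, 34.1% at 1 to 3 kb, 4.25% at 3 to 10 kb, 0.682% at 10 to 20 kb, 2.15% at 20 to 40 kb and 5.36% of 373 at 40 kb and over. Whether these genes and regions lacked the mark in spermatids or lacked a called peak was not tested.

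**Figure D4:**
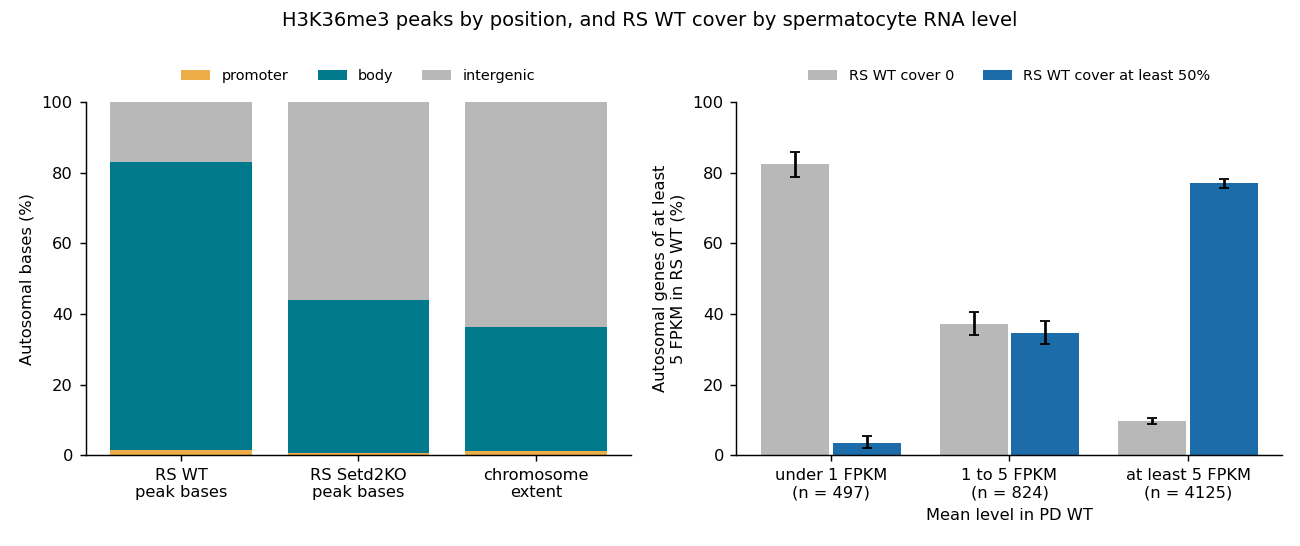
Left, share of autosomal bases (y axis, percent) in promoters, gene bodies and intergenic space for RS WT peaks, RS Setd2KO peaks and the chromosome extent. Right, among genes with an RS WT level of at least 5 FPKM, the share with no RS WT cover (grey) and with at least 50% cover (blue) by mean level in PD WT, with exact 95% binomial intervals as error bars: no cover falls from 82.5% to 9.75% as the PD WT level rises.

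Cover with little RNA was also found. Of 10631 autosomal genes under 1 FPKM in RS WT, 846 had WT cover of at least 50%, and 115 of these (13.6%, exact 95% interval 11.4% to 16.1%) shared an RS WT peak with a gene of at least 5 FPKM.

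The RNA of the same groups shows what happened to expression at genes that lost cover. The RS WT libraries gave 5.24 and 5.58 FPKM for Setd2 and the RS Setd2KO libraries 12.1 and 8.67 FPKM (log2 change 0.81, limma adjusted p = 0.00162), but a value over the whole gene does not check a deletion of unknown position, so genotypes are as labelled. Of 11452 genes tested with limma on log2(FPKM + 1), 2390 were higher in RS Setd2KO (20.9%) and 2499 lower (21.8%) at adjusted p under 0.05. Among 5948 tested autosomal genes with at least 50% WT cover, 1141 were higher (19.2%) and 1090 lower (18.3%), with a median log2 change of 0.04. Among 2953 with no WT cover, 709 were higher (24.0%) and 854 lower (28.9%), with a median of -0.06. Among the 2183 in between, 409 were higher (18.7%) and 501 lower (23.0%), with a median of -0.0045. Tested genes on X and Y are in the total only.

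The lower share was thus 18.3% with at least 50% WT cover and 28.9% without cover, and the difference itself was not tested. At high levels the values lay further apart. In the class whose mean over the 4 RS libraries reached 20 FPKM, 178 of 528 without WT cover were lower (33.7%) and 37 higher (7.01%), with a median log2 change of -0.33, whereas 198 of 1656 with at least 50% cover were lower (12.0%) and 273 higher (16.5%), with a median of 0.06. With upper-quartile scaling, which moved the median change of all genes from 0.02 to 0.13, 64.8% of all calls were higher in place of 48.9%, and the shares lower were 24.95% without cover and 15.3% with at least 50%. With no filter on low values 59.8% of calls were higher and these shares were 12.6% and 16.9%, so their order turned. The medians without cover and under 50% also changed sign, to 0.07 and 0.09 with upper-quartile scaling and to 0.02 in both classes with no filter, and that under 50% lay just above 0 without the second RS WT (0.000647) or first RS Setd2KO library (0.000529). Leaving out the first RS WT library left 473 covered genes higher and 668 lower, leaving out the second left 731 and 750, leaving out the first RS Setd2KO library left 510 and 639, and leaving out the second left 771 and 912. Over all genes, the count higher was 1278 without the first RS WT library and 1499 without the first RS Setd2KO library, and the latter left 1610 lower. For cover under 50%, those 2 libraries left 221 and 253 higher, and the first RS Setd2KO library left 327 lower. Across these 4 fits, the lower share ran from 20.5% to 31.0% without cover and from 10.7% to 15.3% with at least 50%.

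**Figure D5:**
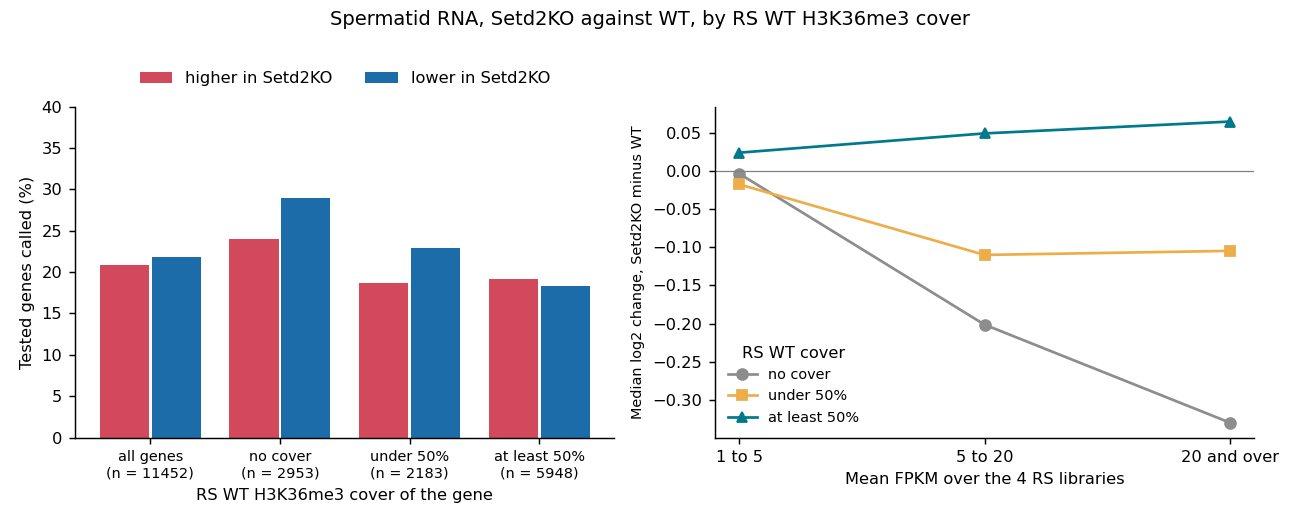
Left, share of tested genes called higher (red) and lower (blue) in RS Setd2KO (limma, adjusted p under 0.05) for all genes and by RS WT cover of the gene. Right, median log2 change of log2(FPKM + 1) by cover class and by mean level over the 4 RS libraries, where uncovered genes reach -0.33 at 20 FPKM and over and covered genes reach 0.06.

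Summed levels of cell type markers moved with this contrast in some lists and little in others. The summed level of the 10 round spermatid markers, which include Prm1, Tnp1 and Tnp2, was 4389 and 4075 FPKM in RS WT and 1678 and 1870 FPKM in RS Setd2KO. That of the 9 Sertoli markers was 6.02 and 7.72 FPKM against 17.0 and 14.5 FPKM, with Sox9, Gata4, Amh and Fshr under 0.1 FPKM in RS WT. The 7 Leydig markers summed to 9.69 and 5.13 against 10.4 and 14.7 FPKM, the 9 myoid and macrophage markers to 4.06 and 5.53 against 12.3 and 11.3 FPKM, and the 11 spermatogonial markers to 10.6 and 12.6 against 10.05 and 9.79 FPKM. The 25 synaptonemal complex and recombination genes summed to 595 and 554 against 587 and 605 FPKM. Fewer cells of a type and less RNA per cell cannot be told apart in bulk samples, and the part of these cells in the counts above was not tested.

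All 5 protamine and transition protein genes had less RNA in RS Setd2KO, and of these only Tnp1 had no WT cover. Whether their cover bore on the fall was not tested. Prm1, wholly covered in WT, had 941 and 912 FPKM in the WT libraries and 238 and 219 FPKM in the Setd2KO libraries, a log2 change of -2.02 (SE 0.18, limma adjusted p = 1.19e-05). Tnp1, with no WT peak, had 1067 and 948 FPKM against 302 and 283 FPKM, a log2 change of -1.78 (SE 0.19, adjusted p = 4.58e-05). Each group had only 2 libraries, which the labels do not tie to separate animals. Prm2, also covered, changed by -1.99 and Tnp2, covered at its start, by -1.77 (adjusted p = 4.11e-05 and 3.82e-05), and Prm3 by -0.86 (adjusted p = 0.00844). The Prm3 call was lost without the first RS WT library (limma adjusted p = 0.0606) and without the first RS Setd2KO library (0.0645).

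Covered genes of other roles went both ways. Acrbp had 310 and 283 FPKM in WT against 190 and 206 FPKM in Setd2KO (log2 change -0.58, limma adjusted p = 0.0147). That call was lost without the first RS WT library (adjusted p = 0.109), without the first RS Setd2KO library (0.129) and without the second (0.0562). Paf1, a subunit of the polymerase-associated factor complex that travels with elongating polymerase, had 33.0 and 29.0 FPKM in WT against 11.1 and 12.4 FPKM in Setd2KO (log2 change -1.33, adjusted p = 3.36e-05). Nek2, which held 1 Setd2KO peak, had 30.5 and 33.9 FPKM in WT against 107 and 87.8 FPKM in Setd2KO, with a log2 change of 1.56 (adjusted p = 3.35e-05). For Nek2, Paf1 and Acrbp too, each group had only 2 libraries, so these values are weak.

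The lost genes of each list can be set beside the 20.9% higher and 21.8% lower of all tested genes. A nearer background is the class with at least 50% WT cover, with 19.2% higher and 18.3% lower. Within that class, genes of at least 20 FPKM had 16.5% higher and 12.0% lower. Of the 56 lost ribosomal protein genes, limma called 3 higher and 0 lower (4 and 3 at an unadjusted p under 0.05), with a median log2 change of 0.02. Of the 12 lost flagellum genes limma called 0 in either direction (0 higher and 2 lower unadjusted), with a median of 0.05. Of the 11 lost acrosome genes 4 were higher and 3 lower, with a median of 0.27. Of the 11 lost testis histone and histone removal genes 3 were higher and 0 lower (the same counts unadjusted). Of the 14 lost synaptonemal complex and recombination genes 1 was higher and 5 lower, and of the 10 lost polymerase and elongation factor genes 1 was higher and 3 lower. Of the 131 tested lost Zfp genes 26 were higher and 30 lower, shares close to those of all genes.

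Of all 2953 tested genes with no WT cover, limma called 24.0% higher and 28.9% lower, and the uncovered genes named here are examples. Setd2 was higher and Tnp1 lower, as given above. Odf2 did not pass (log2 change 0.02, limma adjusted p = 0.932), nor did Spaca1 (-0.07, adjusted p = 0.855). Pwwp2b, a PWWP domain gene of the reader list with no WT cover and 1 RS Setd2KO peak of 115 bases, had 60.9 and 53.8 FPKM in WT against 24.1 and 31.5 FPKM in Setd2KO (log2 change -1.03, adjusted p = 0.000982). Odf1 had 279 and 291 FPKM against 141 and 187 FPKM (log2 change -0.80, adjusted p = 0.013), a call lost without either RS WT library (adjusted p = 0.0595 and 0.0685) and without the first RS Setd2KO library (0.122).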

How the data were processed

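Peaks were taken as deposited by the authors, 1 list per ChIP-seq library, with a score per peak made by the authors. Bowtie, bedtools and CASAVA are named for them in the submitters' processing notes, with build mm9. The peak caller, its settings, and the use of input and of the spike-in chromatin that the labels' protocols mention are not given in the sources used here. RNA-seq values are FPKM deposited by the authors, made with TopHat2, Cufflinks and Cuffdiff after CASAVA, per the submitters' processing notes (versions are not given in the sources used here). The kit is directional per the labels, whether counting used strand is not stated, and near-identical genes can share reads. Of 20626 gene symbols, 24 are bare numbers and are not printed.

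Peaks were compared on autosomes by number, width, score, bases covered and overlap (1 base or more), over gene intervals of the RS WT table (Python 3.11.15, pandas 2.3.3, scipy 1.17.1), with exact 95% binomial intervals. RNA depth was worked back from the steps of low FPKM values, of which 99.4% or more were whole read multiples in the RS libraries within a tolerance of 0.003. RNA was tested with limma 3.58.1 (R 4.3.3) with an intensity trend on log2(FPKM + 1), a pseudocount of 1 FPKM, in genes with a group mean of 1 FPKM or more in any of the 4 groups, fitted together, with Benjamini-Hochberg adjustment over all tested genes. Fold changes on that scale understate those of low genes. The limma fit and the interval arithmetic were tested on simulated data. The alternatives were other score, width, overlap, promoter, cover and FPKM limits, other gene intervals, scaling, samples in the fit, a replicate block and leaving out each RS RNA library. The peaks, gene lists and rules were chosen with earlier results of these data known. Named genes were Setd2, Acrbp, the protamines and transition proteins, per list the 3 members with most RNA and the least covered member of at least 5 FPKM, and the extremes of cover, length, width and score, 5 of each kind. Genes known by clone or model number kept their place but are not printed. The spermatocyte input libraries were not used here.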

Additional observations from a re-analysis of the deposited data

Results flagged for a closer look

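The RS Setd2KO list held 13 peaks on chromosome X, where the RS WT list held 0. It also held 3 peaks on chromosome Y, where the RS WT list again held 0. Both PD lists also held 0 on X and 0 on Y, so these peaks are in 1 of the 4 lists. These chromosomes were outside the main comparison, which used autosomes. Whether such peaks were removed from other lists before deposit is not given in the sources used here. The highest scored of the X peaks, on X from 121264237 to 121264352, scored 95.8, and the highest scored of the Y peaks, from 2474877 to 2474977, scored 107.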

How the results depend on the processing

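Of 136 values recomputed under alternatives, 102 stayed within 1.5 times the reported value, or for shares of peaks or genes within its exact 95% interval, and 34 moved further. These are counts, shares, ratios and widths, which have no sign. Of the median log2 changes by cover, that without cover (-0.06) became 0.02 with no filter and 0.07 with upper-quartile scaling, and that under 50% (-0.0045) became 0.02 and 0.09. With scores of at least 100 only, the ratio of covered bases was 34664 and of peak numbers 1028, the overlap shares were 0.0156% of WT and 40% of Setd2KO peaks, Setd2KO bases were 5.64% promoter and 36.4% intergenic, and 28.6% of genes were lost. With widths of at least 300 bases, the ratios were 33929 and 2299.9, and the Setd2KO median width was 345. With an overlap of at least 50% of the peak the WT share was 0.0058%. The WT promoter share was 2.53% with 2000 upstream bases, 0.792% with the gene body first (Setd2KO 0.258%) and 0.91% by peak midpoint. Lost genes were 42.4% with any WT base and no Setd2KO base, and 22.8% with a limit of 80%.

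For RNA, with no filter on low values 4324 genes were higher, and 2516 without cover were higher and 1299 lower. With upper-quartile scaling 3938 were higher, 651 of them under 50% cover and 2057 at 50% or more. Leaving out 1 library gave 1278 to 1773 genes higher and 1610 to 2373 lower, of which 221 to 313 and 327 to 473 were under 50% cover, and 473 to 771 and 639 to 912 at 50% or more. The same replicate number in RS WT and RS Setd2KO does not pair the samples by any label, and their deviations correlated at r = -0.153. With the replicate block 2211 genes were higher and 2402 lower. With the crossed pairing, chosen after seeing the data, 2345 were higher and 2472 lower.

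ChIP depth is unknown, and absence of a peak was not told apart from too few reads for one. When 1 RNA library is left out, the lone sample of its group is assumed to vary like the other groups.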
